A study of Mus musculus with 42 samples.

Results

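Joint soft tissue labelled RST on day 7 was compared with joint soft tissue labelled LST, gene by gene, in mice that underwent knee arthroplasty, an operation that replaces joint surfaces with an implant. The members of the comparison are 4 RST libraries of day 7 and 4 LST libraries, which were 8 of the 42 libraries of the series, and the 16149 of 36604 listed genes with enough counts to test. All 8 libraries came from C57BL/6 mice of wild type genotype, from tissue that was flash frozen and extracted with Trizol, and from 100 ng of total RNA. What RST and LST stand for is not said in the labels, which also give no age, no time of day and no animal numbers for joint samples. LST was sampled on day 35 only, so label and day changed together and cannot be told apart. Nothing in the labels says that replicates came from separate animals, so the p-values speak only of the spread among these libraries, and that spread may be technical. Libraries of RST days 3, 14 and 35 (4 each) served to place day 7 in its time course. Those comparisons share the day 7 libraries with each other and with the comparison against LST.

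A wounded joint passes through inflammation, then proliferation of fibroblasts, vessels and, near bone, cartilage, and then remodelling of the matrix. Recruited monocytes and macrophages clear debris, activated fibroblasts lay down and cross-link collagen, and injured muscle rebuilds fibres from satellite cells, which pass through embryonic and neonatal myosins before adult ones return. Around a skeletal injury, fibrous tissue may turn into cartilage and then bone.

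Levels are counts per 1000000 (CPM), scaled by TMM, a method that sets aside the genes differing most. CPM is not divided by transcript length, so levels are compared between libraries and not between genes. Differences are log2 fold changes with standard errors (SE), where positive values are higher on RST day 7. The test was edgeR's quasi-likelihood test, with p-values adjusted by Benjamini-Hochberg over all 16149 genes, and a gene is said to pass where its adjusted p was under 0.05. The 8 libraries held 20317132 to 28024003 counts, and the RST day 7 totals (mean 22415668) did not separate from the LST totals (mean 25877609; exact permutation test, two-sided, p = 0.0857). The mitochondrial chromosome took 4.62 ± 0.84% of counts (SD, n = 4) on RST day 7 and 10.5 ± 0.58% in LST, and the 20 most abundant genes took 21.4 ± 2.3% and 33.4 ± 0.88%. Both separated the groups completely, as did the number of genes with at least 10 counts, with means of 15791 and 14131 (exact permutation test, two-sided, p = 0.0286 each, the smallest that 4 against 4 can give). Ribosomal RNA genes took 0.317 ± 0.148% on RST day 7 and 0.0633 ± 0.0191% in LST. Correlations of log2 CPM lay at 0.9853 to 0.9916 among RST day 7 libraries, 0.9877 to 0.9913 among LST libraries and 0.8626 to 0.9105 between the groups. Within RST day 7, replicates 1 and 2 resembled each other more closely, as did replicates 3 and 4. Replicates 3 and 4 had less of the sarcomere genes described below (12.1% and 11.4% of counts) than replicates 1 and 2 (15.5% and 14.6%). The tissue label was checked against markers. Skeletal muscle genes were abundant in both groups, the joint lubricin gene Prg4 was detected in every library, and 10 of 13 epidermal genes, the keratin Krt5 among them, had too few counts to test.

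Of 16149 genes, 12287 differed between RST day 7 and LST, 6620 (41.0%) higher and 5667 (35.1%) lower on RST day 7. The CPM ranges of the groups did not overlap for 11616 genes. The differences were lopsided in size: 4187 genes were over 2-fold higher and 1902 over 2-fold lower, and 1101 were over 8-fold higher against 13 over 8-fold lower. The median over all genes was 0.08. With scaling by total counts alone, that median became 0.71 and 10633 genes were higher against 2195 lower, so the direction of modest changes depends on the scaling, and genes named below whose direction or call changed with total counts are pointed out. Each list below is set against the shares of 41.0% and 35.1%, and against the all-gene median of 0.08.

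**Figure D1:**
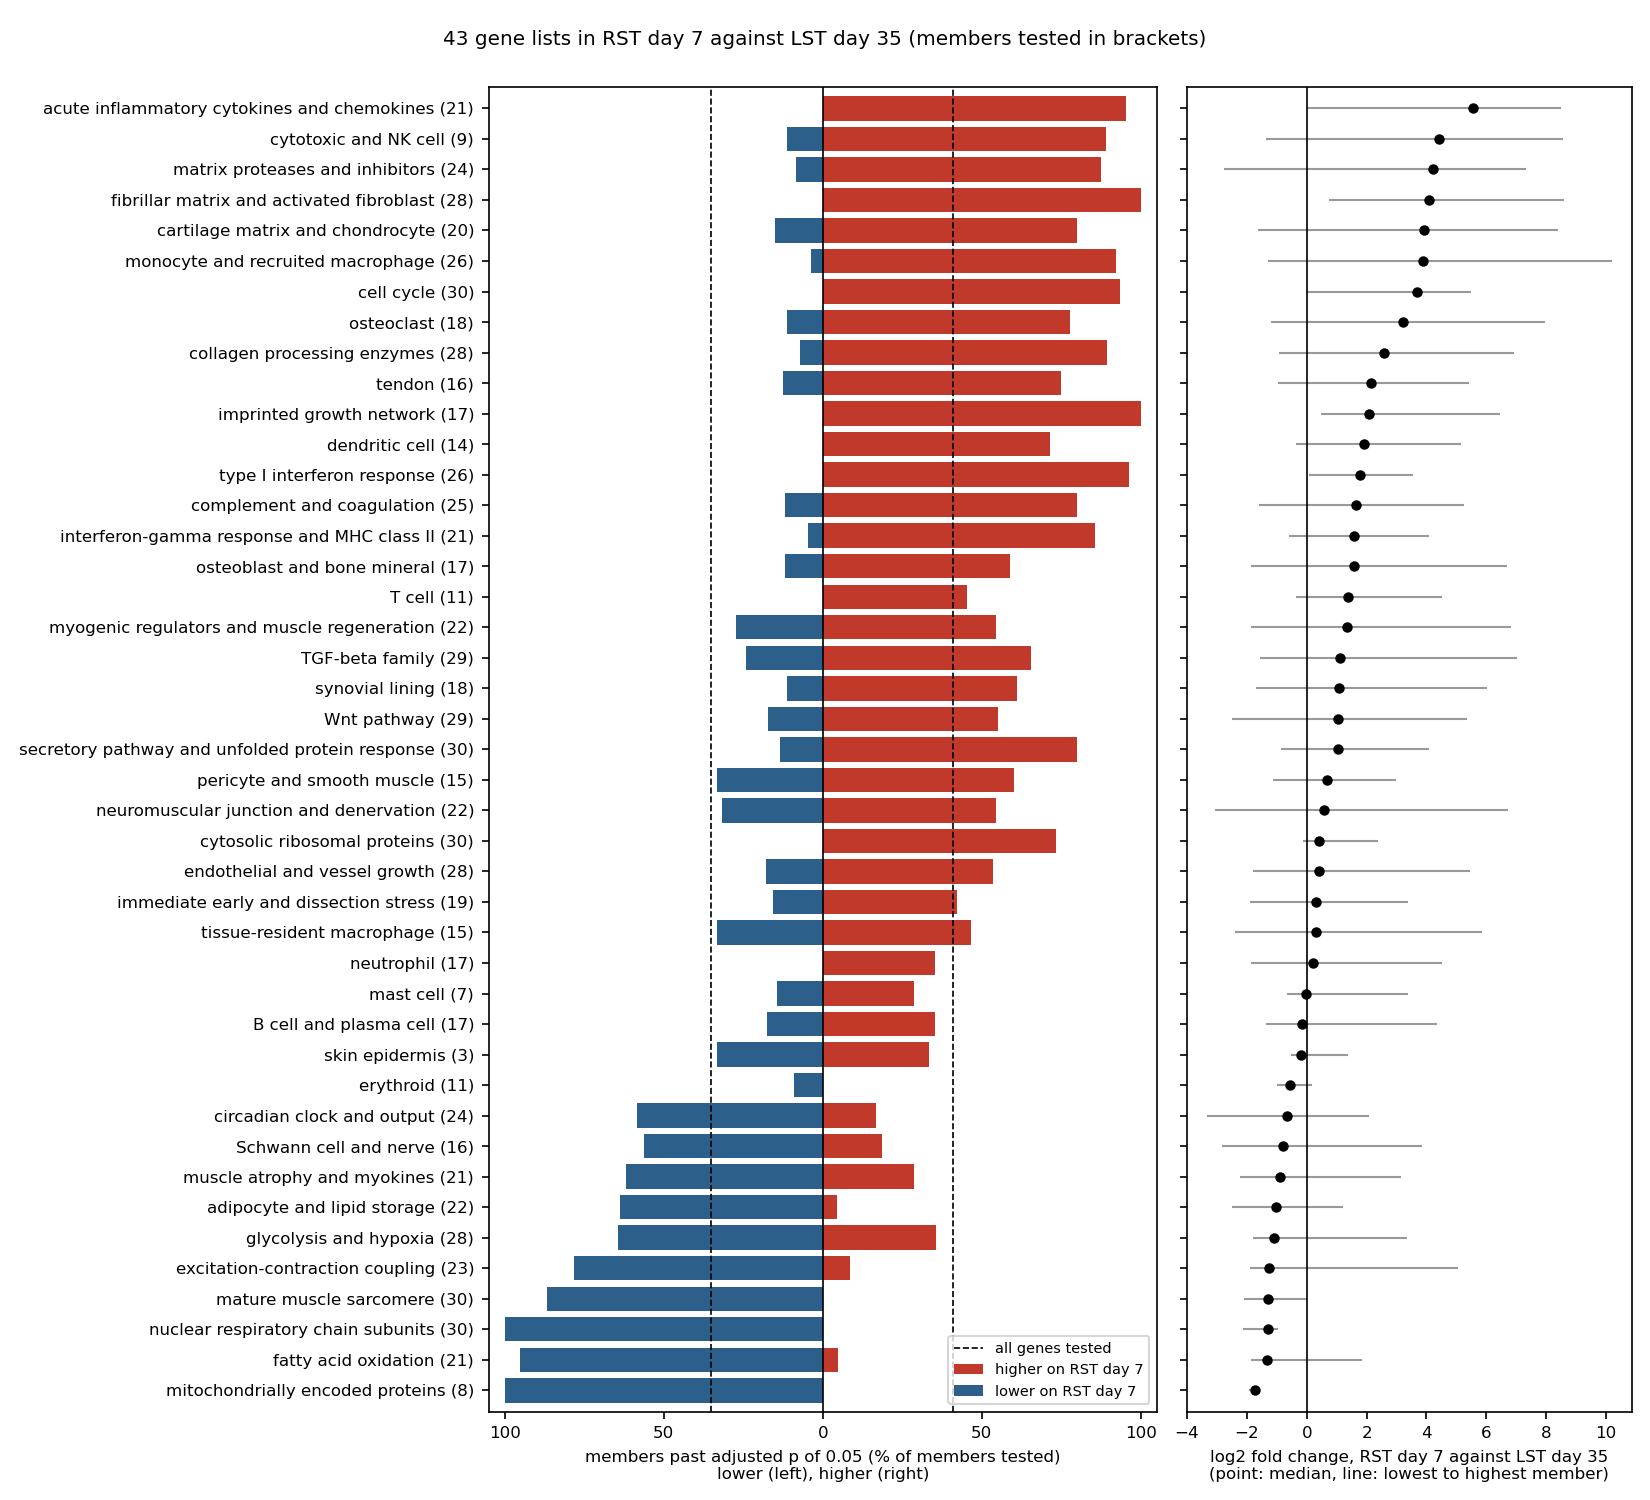
Percent of tested members of 43 gene lists that were higher (right) or lower (left) on RST day 7 than in LST, with the shares over all genes as dashed lines, beside the median and range of the members' log2 fold changes. Inflammatory, matrix, cartilage and cell cycle lists lie at the top and muscle and respiratory lists at the bottom.

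Most of the largest gains in CPM were in the fibrous matrix. All 28 of 28 genes of fibrillar matrix and activated fibroblasts were higher on RST day 7, against 41.0% of all genes, with a median of 4.10. Together they took 5.26 ± 0.84% of counts on RST day 7 and 0.152 ± 0.016% in LST (SD, n = 4). Col1a1 (chr11:94936224-94953042 on mm10), the main chain of type I collagen, stood at 9444, 10819, 12766 and 11656 CPM in RST day 7 replicates 1 to 4 and at 204, 185, 188 and 200.4 CPM in LST replicates 1 to 4, a log2 fold change of 5.85 ± 0.40 (SE; adjusted p = 1.39e-10). The groups did not overlap, and the LST libraries were nearly level with each other. Postn (chr3:54361109-54391037), which encodes periostin, a matricellular protein of healing connective tissue, had 2086, 1846, 2188 and 2037 CPM against 11.9, 10.4, 13.8 and 10.5 CPM (7.45 ± 0.45; adjusted p = 6.39e-11). Tnn (chr1:160085029-160153580), encoding tenascin-N of bone and tendon sheaths, had 240.2, 225, 237 and 264 CPM against 0.801, 0.410, 0.767 and 0.460 CPM (8.61 ± 0.57; adjusted p = 1.15e-10). Cthrc1, a secreted protein of activated fibroblasts, had 197, 215, 219.6 and 218 CPM against 0.801, 0.593, 0.852 and 0.512 CPM (8.25 ± 0.48; adjusted p = 3.79e-11). For Tnn and Cthrc1, every LST library was under 1 CPM. Lrrc15, a surface marker of activated fibroblasts, was 7.55 ± 0.52 higher, and Acta2, the smooth muscle actin of contractile fibroblasts and vessel walls, 2.77 ± 0.18 higher. The gains of Col3a1 (4.95 ± 0.35), Col1a2 (5.16 ± 0.35), Fn1 (3.93 ± 0.46, fibronectin) and Bgn (4.27 ± 0.33, biglycan) were among the 10 largest on the CPM scale.

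The machinery that folds, modifies and cross-links collagen was higher with it. Of 28 collagen processing genes, 25 were higher and 2 lower, with a median of 2.57. P3h1, a prolyl hydroxylase of collagen chains, was 2.58 ± 0.18 higher, Fkbp10, a collagen chaperone, 4.69 ± 0.33, and Loxl3, a lysyl oxidase that cross-links fibres, 4.10 ± 0.30. Lox, the founding lysyl oxidase, had 472 to 582 CPM on RST day 7 and 10.6 to 15.0 CPM in LST (5.36 ± 0.40). Pcolce2 (-0.92 ± 0.19, not past the threshold with total counts at -0.29), an enhancer of procollagen cleavage, was lower, and so was Mia3 (-0.42 ± 0.06), which loads collagen into transport carriers and whose direction turned with total counts. Of 30 genes of the secretory pathway and unfolded protein response, 24 were higher and 4 lower, with a median of 1.04. Kdelr3, a receptor that retrieves endoplasmic reticulum proteins, led them at 4.10 ± 0.28. The 4 that were lower held the stress transcription factor Atf4 (-0.87 ± 0.10) and the endoplasmic reticulum stress gene Herpud1 (-0.84 ± 0.11). The other two, the stress factor Ddit3 (-0.57 ± 0.14) and the coat component Sec23a (-0.62 ± 0.08), turned direction with total counts.

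**Figure D2:**
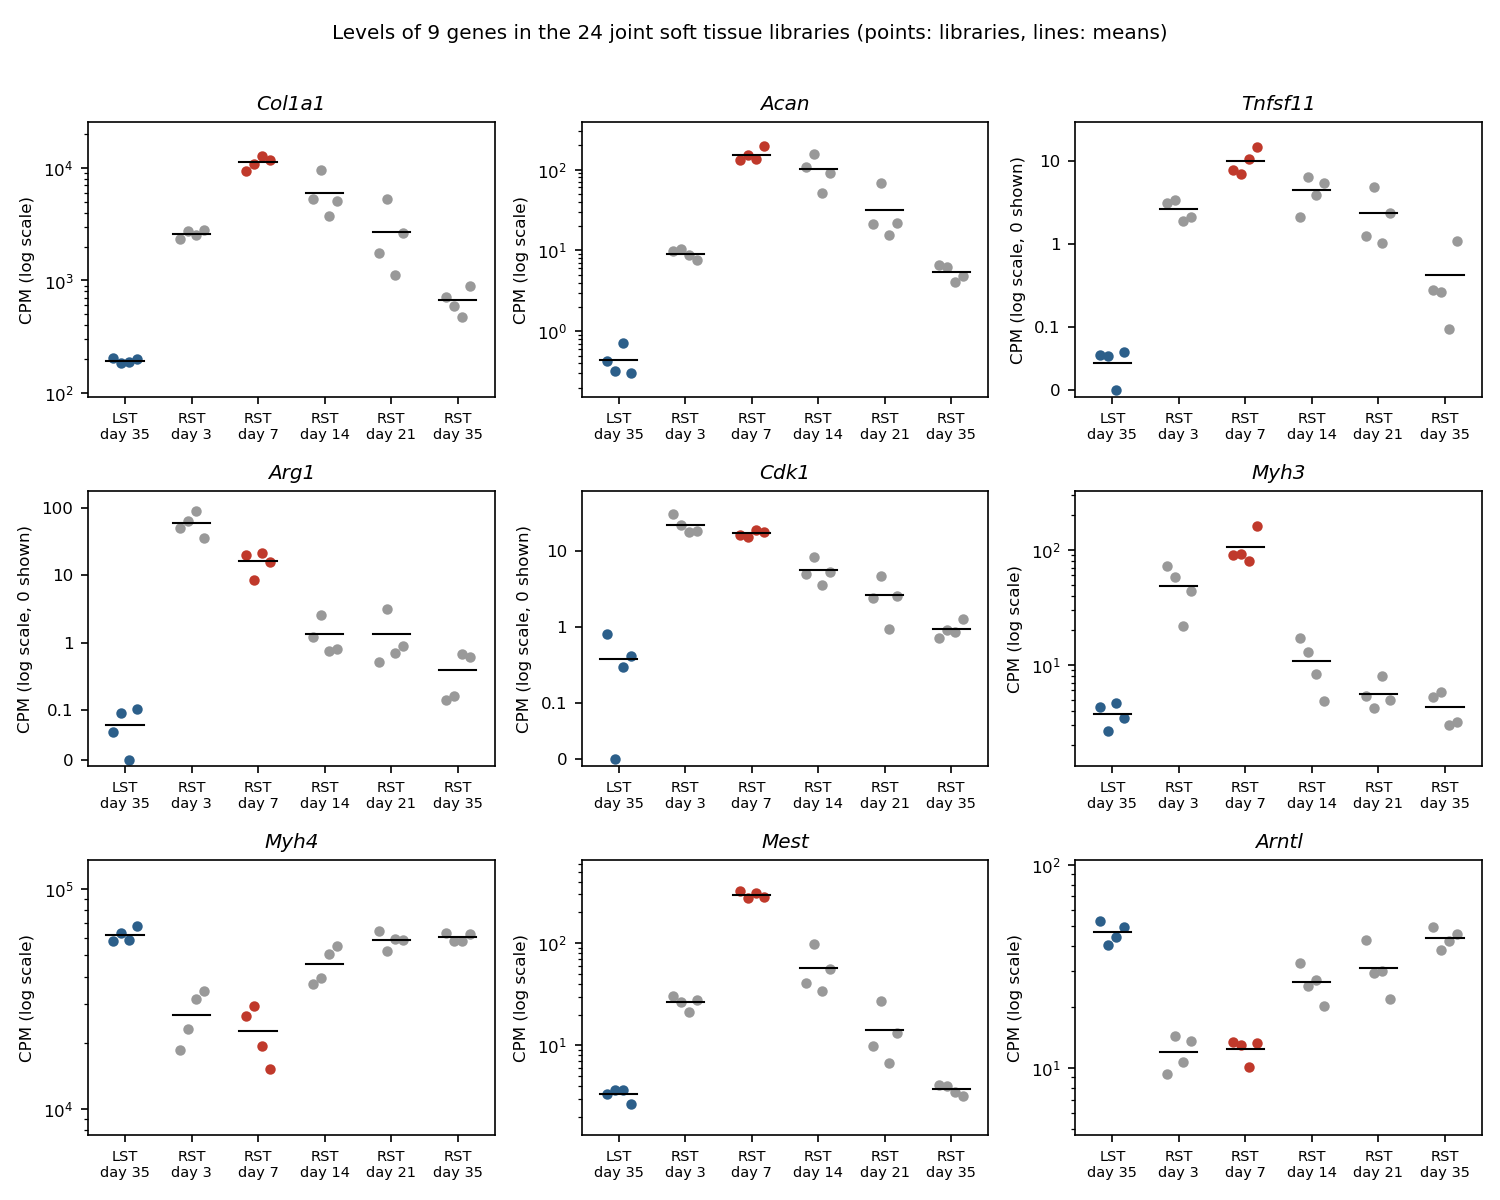
CPM on a log scale (with 0 shown where a library had no count) of 9 genes in the 24 joint libraries, LST in blue, RST day 7 in red and other RST days in grey, with lines at group means. Col1a1, Acan, Tnfsf11, Myh3 and Mest had their highest mean on RST day 7, and Arg1 and Cdk1 on day 3. Myh4 had its lowest mean on day 7, with libraries that overlapped those of day 3.

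Cartilage genes had the highest median of the 43 lists against RST day 3. Of 20 tested, 16 were higher and 3 lower than in LST, with a median of 3.91, and 16 of 20 were higher than on RST day 3 (median 3.02), when 18.7% of all genes were higher on day 7 and 22.5% lower. Against RST day 14, only 5 of 20 were higher and 3 lower (18.0% and 20.9% of all genes). Acan (chr7:79053483-79115099), the core protein of the cartilage proteoglycan aggrecan, had 130.3, 149, 137 and 194 CPM on RST day 7 and 0.424, 0.319, 0.724 and 0.307 CPM in LST (8.38 ± 0.53; adjusted p = 6.96e-11), with a mean of 9.07 CPM on day 3. Every RST day 7 library exceeded every LST library many times over. Col2a1, the main cartilage collagen, had 84.7, 59.9, 65.9 and 57.5 CPM against 4.90, 1.19, 1.15 and 0.512 CPM (5.11 ± 0.84), with means of 1.65 CPM on day 3 and 123 CPM on day 14. Its LST replicate 1 stood above the other LST libraries, and without that library the difference was 6.11. Sox9, the master transcription factor of chondrocytes, had 21.7, 23.5, 33.6 and 31.2 CPM against 2.97, 3.15, 3.41 and 3.68 CPM (3.06 ± 0.24). Col11a1 (6.82 ± 0.47), Matn3 (6.64 ± 0.60, or 7.57 without LST replicate 1) and Col9a3 (5.62 ± 0.68), all of the cartilage fibril and its coat, were higher as well. Col10a1, the collagen of hypertrophic chondrocytes, did not pass against LST (1.64 ± 1.32; adjusted p = 0.263; 1.62 and past the threshold in the fit on the 8 libraries alone) and was lower on day 7 than on day 14 (-3.79 ± 0.82; adjusted p = 0.00126). The 3 lower members were Sox6 (-1.35 ± 0.16), a Sox9 partner, Chad (-1.63 ± 0.27), encoding chondroadherin, and Cytl1 (-1.41 ± 0.41), which did not pass with total counts (-0.80). Sox6 is also expressed in fast muscle fibres.

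Most tendon and synovial lining genes moved the same way, with smaller medians. Of 16 tendon genes, 12 were higher and 2 lower (median 2.15). Tnmd, the tendon marker tenomodulin, had 80.6, 76.3, 75.1 and 73.1 CPM against 3.82, 6.06, 3.28 and 4.81 CPM (4.09 ± 0.25; adjusted p = 6.39e-11), with no overlap. Thbs2 (5.41 ± 0.42) and Comp (3.63 ± 0.30), matrix proteins of tendon and cartilage, were also higher, whereas Tnxb (-0.76 ± 0.19), the tenascin of mature connective tissue, was lower, but not past the threshold with total counts (-0.13). Of 18 genes of the synovial lining, 11 were higher and 2 lower (median 1.08). The 2 lower were Clic5 (-1.70 ± 0.17) and Tspan15 (-0.39 ± 0.17). With total counts, 15 were higher and 1 lower, so 1 of these 2 lower calls depended on the scaling. Tspan15 had the smaller difference of the 2. Those higher included the hyaluronan synthase Has2 (4.42 ± 0.39), the hyaluronan receptor Cd44 (3.93 ± 0.35) and Cemip (6.03 ± 0.55), needed to degrade hyaluronan. Prg4 had 867, 1177, 1014 and 845 CPM against 77.0, 14.4, 47.8 and 74.1 CPM (4.19 ± 0.55; adjusted p = 4.32e-07). Its LST values ranged widely, with replicate 2 lowest.

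Bone genes were higher in part. Of 17 osteoblast and bone mineral genes, 10 were higher and 2 lower (median 1.58), but several of these, such as Col1a1, Sparc (3.79 ± 0.26) and Spp1, are not confined to bone. Bglap, osteocalcin of mature osteoblasts, gave -0.39 ± 0.83 (adjusted p = 0.682), and the mineralization enzymes Alpl (-0.95 ± 0.19) and Phospho1 (-1.86 ± 0.16) were lower, Alpl without passing when scaled by total counts (-0.325). Of 18 osteoclast genes, 14 were higher and 2 lower (median 3.21). Tnfsf11 (chr14:78277445-78308043), which encodes RANKL, the cytokine that drives osteoclast formation, had 7.70, 7.03, 10.6 and 14.6 CPM on RST day 7 and 0.0471, 0.0456, 0 and 0.0512 CPM in LST, or 1148 counts against 3 in all, 286 times (95% counting interval 97.7 to 1390) the LST level. Counting intervals here cover counting error only. Its receptor Tnfrsf11a was 3.22 ± 0.32 higher and its decoy receptor Tnfrsf11b, osteoprotegerin, 3.19 ± 0.32 higher. The osteoclast protease Ctsk, cathepsin K, had 223, 245, 368 and 308 CPM against 10.7, 6.84, 8.35 and 6.65 CPM (5.13 ± 0.39; adjusted p = 3.99e-10). Atp6v0d2 (5.83 ± 0.49), a proton pump subunit, and Itgb3 (2.83 ± 0.28), the integrin of the sealing zone, were higher too. Car2 (-1.20 ± 0.17), the carbonic anhydrase that supplies protons, was lower, as was Ostm1 (-0.23 ± 0.07), which turned direction with total counts. Fibroblasts and macrophages also express Ctsk, and fewer cells of a type cannot be told apart from less RNA per cell in tissue sequenced whole.

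Proteases that cut the matrix were higher as a group. Of 24 proteases and inhibitors, 21 were higher and 2 lower (median 4.20). Mmp12 (7.32 ± 0.53), the macrophage elastase, Mmp14 (4.88 ± 0.36), a membrane collagenase, and Mmp23 (4.40 ± 0.29) were among those with the smallest adjusted p. Mmp13, the collagenase of cartilage and bone, had 53.0, 72.0, 101 and 108 CPM against 2.68, 0.775, 1.24 and 0.972 CPM (5.88 ± 0.59; adjusted p = 9.72e-09), and replicates 3 and 4 of RST day 7 were above replicates 1 and 2. The 2 that were lower were the inhibitors Timp4 (-2.76 ± 0.35) and Timp3 (-0.47 ± 0.14), of which Timp3 turned direction with total counts.

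Inflammatory mediators had the highest median of the 43 lists against LST. Of 21 tested, 20 were higher and none lower, with a median of 5.55, and against RST day 35 the same split of 20 and 0 held (38.6% of all genes higher and 33.5% lower there). Against RST day 3 only 2 of 21 were higher and 3 lower (18.7% and 22.5% of all genes). Cxcl5, a chemokine that attracts neutrophils, had 24.6, 18.8, 27.9 and 37.3 CPM against 0.0942, 0.0456, 0.0426 and 0.102 CPM (8.50 ± 0.94; adjusted p = 4.08e-08). Il6 had 2.67, 2.07, 5.37 and 5.48 CPM against 0, 0.0912, 0.0852 and 0.102 CPM (5.70 ± 0.86), and Ptgs2, the inducible prostaglandin synthase, was 5.59 ± 0.62 higher. The monocyte chemokines Ccl2 (4.93 ± 0.39) and Ccl7 (5.58 ± 0.50) were higher than in LST but lower than on RST day 3 (-1.23 ± 0.27 and -0.93 ± 0.33). The exception was Nos2, the inducible nitric oxide synthase, with 2.45 to 5.06 CPM on RST day 7 and 3.58 to 4.29 CPM in LST (-0.01 ± 0.22; adjusted p = 0.985), although with total counts Nos2 passed as higher (0.61) and all 21 were higher.

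Most genes of recruited monocytes and macrophages were higher than in LST: 24 of 26 were higher and 1 lower (median 3.90). Against RST day 3, however, only 2 of 26 were higher and 13 lower (median -0.77). Over all genes, 18.7% were higher and 22.5% lower there. Acod1, which makes the immunomodulatory metabolite itaconate, had 7.15, 5.82, 7.72 and 4.36 CPM on RST day 7 and no count in any LST library, and was at least 180.0-fold higher with 3 counts as the floor for the LST group. Clec4e, a receptor for glycolipids of microbes and dead cells, had 1218 counts against 2, 456 times (95% counting interval 126 to 3765) the LST level. Arg1, arginase of alternatively activated macrophages, had 20.3, 8.65, 21.5 and 15.8 CPM against 0.0471, 0.0912, 0 and 0.102 CPM (8.03 ± 0.72; adjusted p = 2.50e-09), and its day 3 mean was higher at 60.4 CPM. Trem2, the lipid-sensing receptor, had 24.1, 25.5, 37.8 and 25.5 CPM against 0.283, 0.410, 0.341 and 0.409 CPM (6.27 ± 0.41), and replicate 3 stood above the rest. Spp1, osteopontin, had 442, 559, 762 and 536 CPM against 7.16, 4.38, 5.32 and 5.32 CPM (6.69 ± 0.50). Of 15 genes of tissue-resident macrophages, 7 were higher and 5 lower (median 0.31; 8 and 2 with total counts), near the shares of all genes. Mrc1 (2.21 ± 0.22) and Cx3cr1 (4.02 ± 0.41) were higher, and Retnla, Cd163 (-0.71 ± 0.23), Timd4 (-1.47 ± 0.32) and Mgl2 (-0.65 ± 0.20) were among those lower, of which Cd163 (-0.089) and Mgl2 (-0.026) did not pass with total counts. Retnla, a secreted protein of resident and alternatively activated macrophages, had 5.89, 3.50, 2.23 and 2.63 CPM against 12.6, 21.5, 22.7 and 17.8 CPM (-2.40 ± 0.35; adjusted p = 1.74e-06), a direction opposite to that of Arg1.

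Most neutrophil genes did not pass. Of 17 tested, 6 were higher and none lower (median 0.22), a share near the 41.0% of all genes. The 6 were Mmp9 (4.51 ± 0.60), the colony stimulating factor receptor Csf3r (4.37 ± 0.71), the chemokine receptor Cxcr2 (3.84 ± 0.80), Padi4 (1.89 ± 0.39), Il1r2 (2.95 ± 0.75) and Stfa2l1 (3.18 ± 1.02). Several granule genes did not pass. The lactoferrin gene Ltf had 1.02, 1.14, 3.53 and 1.01 CPM on RST day 7 and 8.34, 1.23, 4.73 and 0.819 CPM in LST (-1.16 ± 1.06), and the calprotectin subunit S100a8 had 8.68, 7.41, 16.9 and 14.1 CPM and 12.7, 2.10, 4.17 and 1.33 CPM (1.21 ± 0.69). LST replicate 1 was the highest LST library for both. S100a8 passed with total counts (1.85). Without LST replicate 1, S100a8 passed at 2.20, Ltf gave -0.44, and Mmp9 (5.16), Csf3r (5.26) and Stfa2l1 (4.50) were further above LST.

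Cell division genes stood far above LST. Of 30, 28 were higher and none lower (median 3.69). Against RST day 14 too, 28 of 30 were higher (median 1.21), with 18.0% of all genes higher there. Against RST day 3 none was higher and 6 were lower (median -0.37), with 18.7% of all genes higher and 22.5% lower. The lower share was thus near that of all genes. Cdk1, the kinase that starts mitosis, had 16.4, 15.4, 18.7 and 17.8 CPM against 0.801, 0, 0.298 and 0.409 CPM (5.50 ± 0.46; adjusted p = 1.02e-09). Top2a, the topoisomerase that untangles replicated chromosomes, had 38.9, 38.2, 43.8 and 40.4 CPM against 2.54, 0.593, 1.66 and 1.28 CPM (4.72 ± 0.42), and Kif11, a spindle motor, was 3.72 ± 0.35 higher. All RST day 7 libraries lay close together and far above LST, and without LST replicate 1, the highest there, the difference of Cdk1 was 6.17. The members that did not pass were Aurka (0.05 ± 0.15) and Ccne2 (-0.02 ± 0.15), both past the threshold as higher with total counts (0.68 and 0.60).

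The promoters of the cell cycle list were also read for the letters known to mark this class. The list was written from textbook knowledge and read whole, so the motif shares describe the class and not these data. Promoters of many genes of the G2 and M phases carry CCAAT boxes, bound by NF-Y, and a cell cycle genes homology region with the letters TTTGAA, bound by the MuvB complex. Of the 30 members, 24 had a promoter in the RefSeq table (GRCm38.p6, 250 bases before to 50 after the start). CCAAT was found on either strand in 20 of 24 (83.3%), against 37.0% of all 15001 promoters of tested genes, and TTTGAA in 12 of 24 (50%), against 12.4%. Shown are the 150 bases before the start, 5′ to 3′ on the gene's strand, of 3 members that hold both motifs there and had the smallest adjusted p among such members. Capitals mark CCAAT or its reverse complement ATTGG and TTTGAA or its reverse complement TTCAAA. They lie at chr10:69352913-69353062 (minus strand), chr11:99024190-99024339 (minus) and chr19:37376232-37376381 (plus). A match describes letters, not bound factors.
Cdk1: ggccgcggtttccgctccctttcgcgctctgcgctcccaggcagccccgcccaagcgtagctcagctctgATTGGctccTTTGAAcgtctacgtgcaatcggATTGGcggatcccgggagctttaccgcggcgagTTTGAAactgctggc
Top2a: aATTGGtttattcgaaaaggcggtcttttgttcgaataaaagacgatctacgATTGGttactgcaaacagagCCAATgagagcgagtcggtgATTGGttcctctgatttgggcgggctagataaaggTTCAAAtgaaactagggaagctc
Kif11: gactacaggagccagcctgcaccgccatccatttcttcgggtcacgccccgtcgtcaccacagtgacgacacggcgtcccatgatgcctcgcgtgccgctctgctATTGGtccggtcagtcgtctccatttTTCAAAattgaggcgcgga

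Interferon-stimulated genes were higher than in LST as well. Of 26 genes of the type I interferon response, 25 were higher and none lower than in LST (median 1.79). Against RST day 3, however, none was higher and 16 were lower (median -0.77), with 18.7% and 22.5% of all genes higher and lower there. Oas1a, a sensor of double-stranded RNA, had 4.63, 5.66, 6.22 and 5.62 CPM against 0.801, 0.821, 0.596 and 0.921 CPM (2.82 ± 0.30; adjusted p = 1.98e-08). Mx1, an antiviral GTPase, had 4.20, 3.21, 4.16 and 3.86 CPM against 0.236, 0.365, 0.383 and 0.307 CPM (3.55 ± 0.54). Bst2, which tethers budding virions, was 2.17 ± 0.24 higher and Ifit1, which binds foreign RNA caps, 2.09 ± 0.32 higher. The groups did not overlap for any of these. The core letters of the interferon-stimulated response element, GAAANNGAA (N is any base, either strand), were in 12 of the 20 promoters that the table holds for 18 members (60%), against 7.44% of all promoters. The 150 bases before the start of Oas1a (chr5:120907526-120907675, minus strand), Bst2 (chr8:71537473-71537622, minus) and Ifit1 (chr19:34640739-34640888, plus) are shown, chosen by the same rule, with the element or its reverse complement in capitals. In each of them, matches overlap into a longer run.
Oas1a: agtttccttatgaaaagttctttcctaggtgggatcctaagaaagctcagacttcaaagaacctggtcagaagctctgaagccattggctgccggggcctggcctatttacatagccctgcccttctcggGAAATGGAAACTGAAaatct
Bst2: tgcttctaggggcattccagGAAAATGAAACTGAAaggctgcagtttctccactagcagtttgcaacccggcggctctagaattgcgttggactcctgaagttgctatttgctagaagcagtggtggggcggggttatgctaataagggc
Ifit1: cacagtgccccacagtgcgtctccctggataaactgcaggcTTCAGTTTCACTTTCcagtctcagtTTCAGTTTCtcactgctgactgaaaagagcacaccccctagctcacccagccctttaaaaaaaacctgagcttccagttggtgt

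Most interferon-gamma and class II genes were higher as well: 18 of 21 were higher and 1 lower (median 1.59). The class II chains H2-Aa (2.14 ± 0.19), H2-Ab1 (2.02 ± 0.17) and H2-Eb1 (2.09 ± 0.17) and the invariant chain Cd74 (1.66 ± 0.16), which present antigen to helper T cells, were higher, while the GTPase Gbp4 (-0.60 ± 0.22) was lower, turned direction with total counts and did not pass without RST day 7 replicate 4 (-0.44). Of 14 dendritic cell genes, 10 were higher and none lower (median 1.93), including Itgax (4.57 ± 0.39) and Flt3 (3.51 ± 0.37). Of 25 complement and coagulation genes, 20 were higher and 3 lower (median 1.65). C1qa (2.93 ± 0.26) and the anaphylatoxin receptor C3ar1 (4.43 ± 0.40) were higher. The terminal component C7 (-1.43 ± 0.46) and Cfd (-1.58 ± 0.51), also an adipocyte product, were among those lower, and neither passed with total counts (-0.83 and -0.96).

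Lymphocyte genes were sparse, but several granzymes were detected in every RST day 7 library. Of 11 T cell genes tested, 5 were higher, a share near the 41.0% of all genes, and none lower (median 1.39). Of 20 listed, 9 had too few counts to test, Cd3d and Cd8a among them. Ccr7, a homing receptor of T and dendritic cells, was 4.52 ± 0.55 higher and Cd4, which macrophages may also express, 4.10 ± 0.56 higher (5.10 without LST replicate 1). Of 17 B and plasma cell genes, 6 were higher and 3 lower (median -0.15). Of 9 cytotoxic and NK cell genes tested, 8 were higher and 1 lower (median 4.41), whereas 9 more, including the NK receptor Ncr1 and the perforin gene Prf1, had too few counts to test. Gzmd, a granzyme, had 1.88, 0.954, 1.47 and 3.82 CPM on RST day 7 and no count in LST, and was at least 57.1-fold higher. Gzme had 3.93, 3.18, 4.58 and 9.69 CPM against 0, 0, 0.0426 and 0 CPM, or 609 counts against 1, 456 times (95% counting interval 81.4 to 18020) the LST level. Gzmc had 243 counts against 1, 182 times (95% counting interval 32.3 to 7208) the LST level. RST day 7 replicate 4 was highest for Gzmd and Gzme. These genes lie next to each other and are near-identical in places, so how reads were divided among them is uncertain. Gzmb was 4.80 ± 0.87 (5.78 without LST replicate 4) and the NK receptor chain Klrd1 4.41 ± 0.61 higher, and the T helper and NK transcription factor Tbx21 was lower (-1.35 ± 0.36). Of 7 mast cell genes tested (11 listed), 2 were higher, a share below the 41.0% of all genes, 1 was lower and 4 did not pass (median -0.03). Kit (1.71 ± 0.25) and the histidine decarboxylase Hdc (3.38 ± 0.78) were higher. Gata2 (-0.64 ± 0.15) was lower, though not past the threshold with total counts (-0.027). With total counts, 3 were higher and none lower.

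Growth factor genes moved in both directions. Of 29 genes of the TGF-beta family, 19 were higher and 7 lower (median 1.13). Among ligands, Tgfb1 was 2.44 ± 0.27 and Tgfb3 0.93 ± 0.11 higher, whereas Tgfb2 gave -0.12 ± 0.08 (adjusted p = 0.172; 0.50 and past the threshold with total counts). Inhba, the activin A subunit, had 69.8, 102, 94.4 and 133 CPM against 4.38, 2.14, 3.41 and 2.25 CPM (5.03 ± 0.44; adjusted p = 1.91e-09). Gdf5, a joint morphogen, had 250 counts against 1, 187 times (95% counting interval 33.2 to 7414) the LST level. Bmp6 (-1.22 ± 0.18), Bmp7 (-1.57 ± 0.49) and Mstn (-1.48 ± 0.24), the muscle growth inhibitor myostatin, were lower, and Bmp7 did not pass with total counts (-0.97). Among regulators, the BMP antagonist Grem1 (5.47 ± 0.92), the latent TGF-beta binding protein Ltbp2 (6.44 ± 0.40) and the activin antagonist Fstl3 (2.25 ± 0.26) were higher, and Ltbp4 (-0.69 ± 0.12) lower, with Ltbp4 not past the threshold with total counts (-0.065). The ligand Bmp4 (-0.58 ± 0.17) and the inhibitory Smad7 (-0.62 ± 0.12) were lower with TMM and turned direction with total counts. Of the receptors, Tgfbr2 was 1.60 ± 0.15 higher and Tgfbr1 gave 0.11 ± 0.12 (adjusted p = 0.422; 0.74 and past the threshold with total counts).

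Of 29 Wnt pathway genes, 16 were higher and 5 lower (median 1.05). Among Wnt ligands, Wnt16 (3.11 ± 0.35), Wnt2 (1.87 ± 0.42) and Wnt5b (1.15 ± 0.18) were higher and Wnt4 (-1.04 ± 0.16) lower. The secreted inhibitor Sfrp1 had 110.4, 94.1, 146 and 143 CPM against 3.34, 2.42, 3.36 and 2.87 CPM (5.36 ± 0.42; adjusted p = 5.91e-10), and Sfrp2 was 5.18 ± 0.31 higher, while Sfrp5 was lower (-2.49 ± 0.40). The R-spondins Rspo2 and Rspo3, which amplify Wnt signals, and their receptor Lgr5 were higher, Rspo2 by 4.38 ± 0.59, Rspo3 by 1.80 ± 0.26 and Lgr5 by 4.40 ± 0.38. Axin2, a common readout of the canonical pathway, gave -0.28 ± 0.16 (adjusted p = 0.110), but passed as lower in the fit on the 8 libraries alone (-0.31) and as higher with total counts (0.34).

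Of the 43 lists, mature muscle genes had the largest loss in share of counts. Of 30 sarcomere genes, 26 were lower and none higher on RST day 7, against 35.1% of all genes lower, with a median of -1.29. They took 13.4 ± 1.9% of counts on RST day 7 and 21.6 ± 0.42% in LST. Against RST day 3, 5 of 30 were lower and none higher (median -0.36), with 22.5% of all genes lower there. Myh4 (chr11:67238029-67260446), the fast IIb myosin heavy chain, had 26581, 29377, 19326 and 15191 CPM against 58250, 62868, 58631 and 67905 CPM (-1.45 ± 0.23; adjusted p = 4.56e-06). Acta1, skeletal actin, had 18457, 15468, 12525 and 11962 CPM against 40938, 40260, 39184 and 38073 CPM (-1.44 ± 0.17; adjusted p = 1.38e-07). Replicates 1 and 2 of RST day 7 were higher than 3 and 4 for both, and all 4 were below LST. The 4 that did not pass were all of slow fibres: Tnni1 gave 0.00 ± 0.45, Tnnt1 -0.31 ± 0.45, Tpm3 -0.04 ± 0.31 and Myh7 -1.08 ± 0.53, each with overlapping groups. Myh7 passed without LST replicate 2 (-1.39), in the fit on the 8 libraries alone (-1.11) and without the filter on low counts (-1.11). Other slow-fibre genes passed, such as Myl2 (-2.02 ± 0.46) and Myl3 (-2.09 ± 0.45). Whether slow and fast genes differ as classes was not tested. Of 23 genes of excitation-contraction coupling, 18 were lower and 2 higher (median -1.25), with Atp2a1 (-1.41 ± 0.20), the fast calcium pump, and the channel Kcna7 (-1.90 ± 0.21) lower. Sln, sarcolipin, an inhibitor of that pump, was one of the 2 that were higher, with 172, 56.5, 140.2 and 117 CPM against 6.26, 1.46, 3.45 and 3.38 CPM (5.06 ± 0.62), and Fkbp1a was the other (0.26 ± 0.08; not past the threshold without the filter on low counts, 0.23).

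Genes of muscle formation differed in both directions. Of 22 myogenic and regeneration genes, 12 were higher and 6 lower (median 1.36), and their share of counts, 0.600 ± 0.069% on RST day 7 and 0.519 ± 0.021% in LST, did not separate the groups (exact permutation test, two-sided, p = 0.0571). Much of that share was Des, with means of 3023 CPM on RST day 7 and 3976 CPM in LST. The share thus says little of the other members. Myh3 (chr11:67078300-67102291), the embryonic myosin heavy chain, had 89.6, 91.9, 79.9 and 163 CPM against 4.33, 2.64, 4.69 and 3.43 CPM (4.81 ± 0.40; adjusted p = 9.65e-10). Myh8, the neonatal form, had 178, 142, 155 and 194 CPM against 5.79, 5.38, 6.43 and 6.19 CPM (4.81 ± 0.34; adjusted p = 1.50e-10), and a day 3 mean of 9.35 CPM. RST day 7 replicate 4 was highest for both. Mymk, the membrane protein that fuses myoblasts, had 9.82, 9.03, 9.33 and 11.1 CPM against 0.141, 0, 0 and 0.205 CPM (6.82 ± 0.58, or 7.61 without LST replicate 4), and its partner Mymx had 317 counts against 2, 118 times (95% counting interval 32.5 to 983) the LST level. Myog, the differentiation factor, was 1.48 ± 0.36 higher, whereas the satellite cell factor Pax7 gave 0.18 ± 0.22 (adjusted p = 0.465; 0.80 and past the threshold with total counts) and Myod1 -0.45 ± 0.28 (adjusted p = 0.146). Myod1 had 21.4, 21.1, 17.9 and 50.6 CPM on RST day 7 and 37.1, 37.5, 39.2 and 37.8 CPM in LST, and without RST day 7 replicate 4 it passed at -0.92. Actc1 (-1.30 ± 0.32), the cardiac actin of developing muscle, was lower than in LST and higher than on day 3 (1.99 ± 0.33). The other 5 that were lower were Sgca (-1.18 ± 0.11) of the sarcoglycan complex, the transcription factors Mef2c (-1.03 ± 0.12) and Pax3 (-1.88 ± 0.41), the cadherin Cdh15 (-0.92 ± 0.12) and Des (-0.40 ± 0.12), the desmin filament of mature fibres, which turned direction with total counts.

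Subunits of the acetylcholine receptor differed in direction. Of 22 neuromuscular junction and denervation genes, 12 were higher and 7 lower (median 0.58). Chrng, the fetal gamma subunit that denervated or immature fibres use, had 7.70, 6.90, 5.63 and 36.1 CPM against 0.236, 0.0912, 0.0426 and 0.153 CPM (6.72 ± 1.05; adjusted p = 4.92e-06), with replicate 4 several times above the others. Without replicate 4 the differences were 5.66 for Chrng and 1.54 for Chrnd. Chrna1 (2.48 ± 0.30) and Chrnd (2.56 ± 0.52) were higher. Chrne, the adult epsilon subunit, had 6.32 to 8.68 CPM against 9.62 to 12.4 CPM and was lower (-0.48 ± 0.21; adjusted p = 0.0376), a direction that turned with total counts. It did not pass without RST day 7 replicates 3 (-0.41) or 4 (-0.43) or LST replicates 1 (-0.40) or 3 (-0.48). The denervation gene Runx1 (4.87 ± 0.38), also of blood cells and fibroblasts, was higher. The synaptic organizers Rapsn (-1.14 ± 0.13) and Dok7 (-0.96 ± 0.14) and the acetylcholinesterase anchor Prima1 (-3.06 ± 0.33) were lower. The list's share of counts in RST day 7 replicate 4 was 0.124%, against 0.0571% to 0.0637% in the other 3. Of 21 muscle atrophy genes, 6 were higher and 13 lower (median -0.90; 9 and 10 with total counts). The ubiquitin ligase Fbxo32, atrogin-1, had 173, 158, 137 and 221 CPM against 752, 563, 453 and 706 CPM (-1.84 ± 0.23; adjusted p = 2.50e-07). Trim63, MuRF1, was -1.19 ± 0.16 and Fbxo40 -1.48 ± 0.15. Gdf15 (2.85 ± 0.45), a stress cytokine, Metrnl (2.01 ± 0.23) and Cdkn1a (1.30 ± 0.29) were higher.

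**Figure D3:**
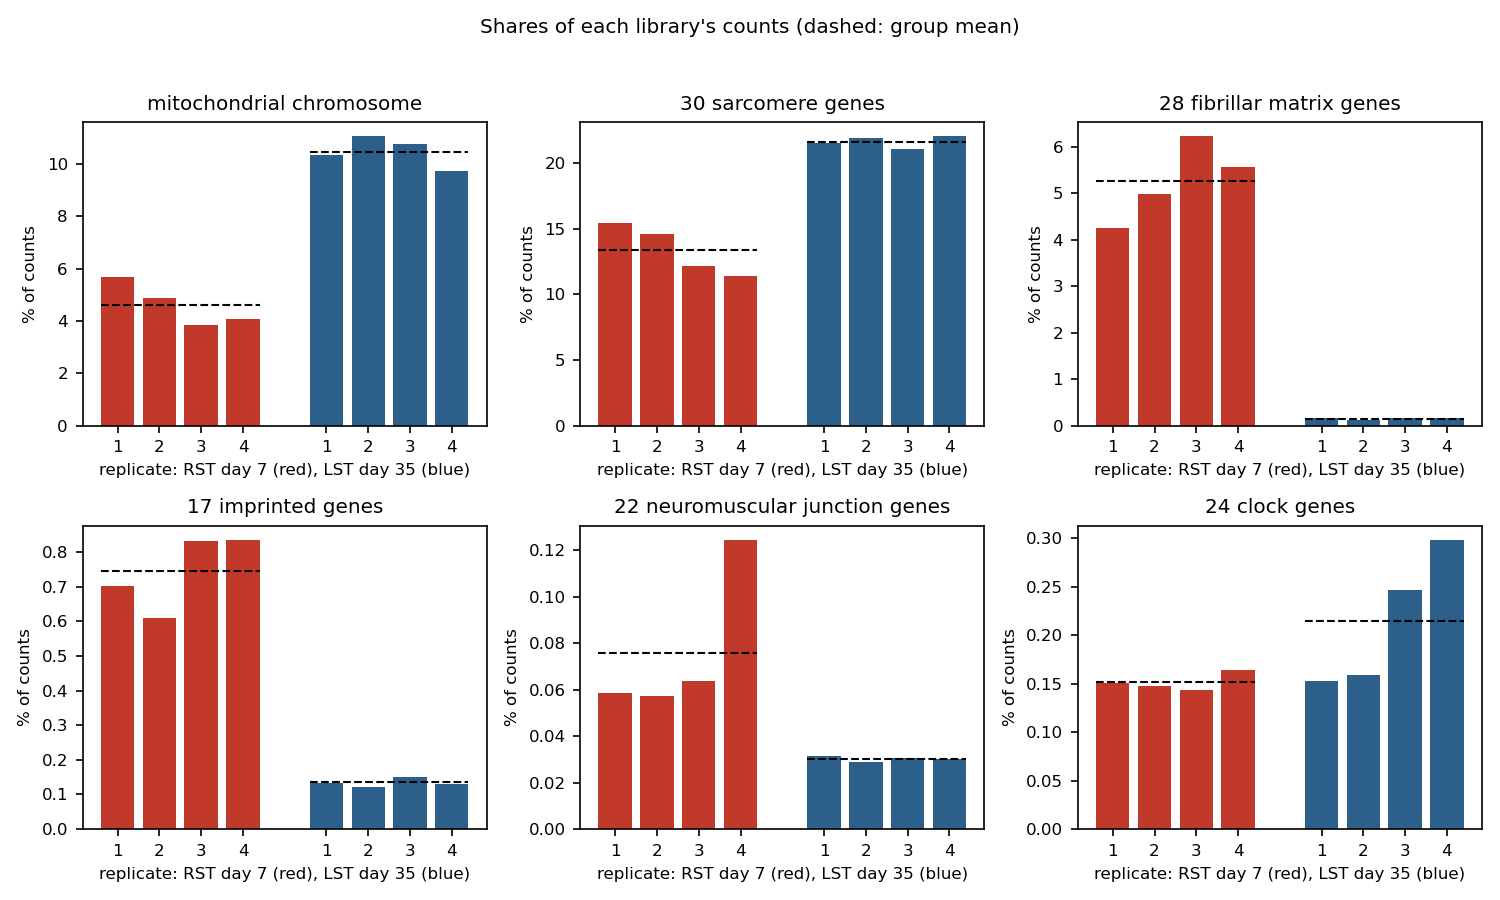
Percent of each library's counts on the mitochondrial chromosome and on 5 gene lists, by replicate, with dashed lines at group means. Mitochondrial and sarcomere shares are lower and fibrillar and imprinted shares higher in every RST day 7 library than in any LST library. Replicate 4 of RST day 7 stands apart for junction genes and the LST libraries spread for clock genes.

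Respiration genes were lower, with 1 exception among those tested. All 8 mitochondrially encoded genes tested (median -1.73), all 30 nuclear subunits of the respiratory chain (median -1.31) and 20 of 21 fatty acid oxidation genes (median -1.33) were lower on RST day 7 in the TMM-scaled test. Against RST day 14 too, 7 of 8, 30 of 30 and 20 of 21 were lower, with 20.9% of all genes lower there. Against RST day 3, fewer were lower: 6 of 8, 5 of 30 and 10 of 21, with 22.5% of all genes lower there. mt-Co1, a subunit of cytochrome oxidase, had 13804, 11759, 8433 and 8967 CPM against 35497, 39679, 37938 and 33410 CPM (-1.77 ± 0.20; adjusted p = 4.82e-08). Not all 13 listed mitochondrial genes could be tested. Summed counts on RST day 7 and in LST were 7 and 11 for mt-Co2 and 1 and 7 for mt-Co3. They were 3 and 2 for mt-Atp6 and 0 and 1 for mt-Nd4l, and mt-Atp8 was not among the listed genes of the count data. Why these counts were so low was not tested, and the mitochondrial shares given above hold almost nothing of these genes. Cox7a1 (-2.13 ± 0.19), Cox8b (-2.0 ± 0.18) and Cox6a2 (-1.93 ± 0.17), the muscle and heart forms of oxidase subunits, were among the nuclear subunits that were lower. These genes moved with the mitochondrial and sarcomere shares given above, and whether the loss within muscle fibres differs from a smaller share of muscle was not tested. The fatty acid oxidation gene that was higher was Cpt1a, the carnitine transferase form of liver and most other tissues, with 25.7, 35.0, 41.6 and 29.4 CPM against 8.15, 6.06, 9.84 and 12.5 CPM (1.85 ± 0.31; adjusted p = 1.09e-05).

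Several glycolysis genes split by form. Of 28 glycolysis and hypoxia genes, 10 were higher and 18 lower (median -1.09). Eno3, the muscle enolase, had 3237, 2744, 1914 and 1405 CPM against 7765, 8133, 7281 and 7466 CPM (-1.72 ± 0.22), and Eno1, the enolase of most tissues, 169, 158, 170.0 and 177 CPM against 63.4, 56.5, 50.1 and 53.5 CPM (1.59 ± 0.12; adjusted p = 2.61e-10). The phosphoglycerate mutase of muscle, Pgam2, was -1.52 ± 0.18 and the widespread Pgam1 2.05 ± 0.19. Phosphofructokinase of muscle, Pfkm, was -1.78 ± 0.18, that of platelets, Pfkp, 1.49 ± 0.18 and that of liver, Pfkl, 0.92 ± 0.11. Hexokinase 2, Hk2, was -1.38 ± 0.13, while Hk1 was 1.62 ± 0.14 and Hk3, of myeloid cells, 3.33 ± 0.43. The insulin-responsive glucose transporter Slc2a4 was -1.91 ± 0.19 and the widespread Slc2a1 0.74 ± 0.16. In each of these sets the form of muscle was lower and the others higher, but the sets are only part of the list. Outside them the split did not hold throughout: Ldha and Ldhb, both lactate dehydrogenase forms, were lower, as were Gapdh and Pkm. With total counts, 10 of the 28 were higher and 16 lower. Hif1a, the hypoxia factor, was 2.79 ± 0.22 higher. Of 30 cytosolic ribosomal protein genes, 22 were higher and none lower, with a small median of 0.42. Rpl3 stood out with 229, 218, 281 and 280.4 CPM against 51.0, 43, 50.3 and 47.3 CPM (2.40 ± 0.18; adjusted p = 2.42e-10), and the next of the 30 was Rpl13a at 1.21 ± 0.15.

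**Figure D4:**
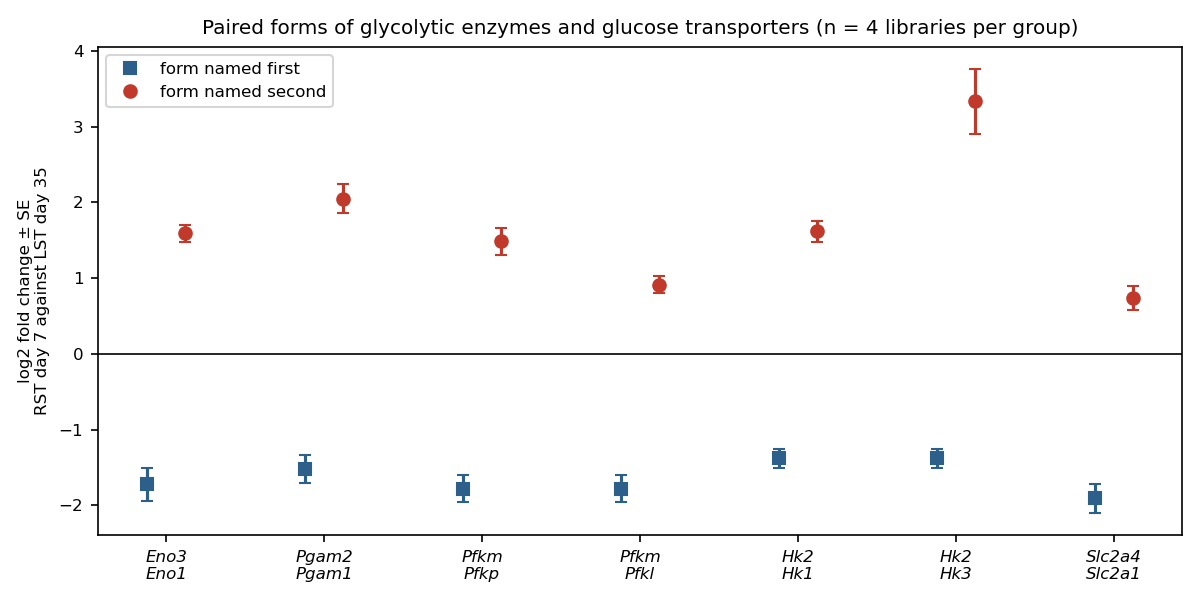
Log2 fold changes with SE bars (RST day 7 against LST, 4 libraries each) of 7 chosen pairs of glycolytic enzyme or glucose transporter forms. The form named first is a square and the second a circle. Every first form lies below 0 and every second form above 0.

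Fat and nerve genes were lower in part, and mural genes differed in both directions. Of 22 adipocyte and lipid storage genes, 14 were lower and 1 higher (median -1.03; 7 and 3 with total counts). Plin4 (-2.51 ± 0.28), Lpl (-1.78 ± 0.27) and Pnpla2 (-1.61 ± 0.21), which coat, load and empty lipid stores and are also expressed in muscle, were lower. Adipoq, the adipocyte hormone adiponectin, gave -0.75 ± 0.41 (adjusted p = 0.103), and passed without RST day 7 replicate 2 (-1.08), in the fit on the 8 libraries alone (-0.77) and without the filter on low counts (-0.78). Acly (1.22 ± 0.16), which supplies acetyl-CoA for lipid synthesis, was the 1 higher. Of 16 Schwann cell and nerve genes, 9 were lower and 3 higher (median -0.80; 5 and 5 with total counts). Gap43 (3.86 ± 0.36), of growing axons and repair Schwann cells, and Egr2 (2.16 ± 0.36) were higher. Of 15 pericyte and smooth muscle genes, 9 were higher and 5 lower (median 0.69; 11 and 1 with total counts), the lower share being near that of all genes. Cnn1 (2.98 ± 0.33), a contractile protein shared with activated fibroblasts, was higher, and the pericyte genes Rgs5 (-0.67 ± 0.11), Kcnj8 (-0.69 ± 0.19) and Abcc9 (-1.12 ± 0.15) were lower, but Rgs5 (-0.045) and Kcnj8 (-0.067) did not pass with total counts.

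Vessel genes moved in both directions. Of 28 endothelial and vessel growth genes, 15 were higher and 5 lower (median 0.39). Sele (5.45 ± 0.65), the leukocyte-capturing selectin of inflamed endothelium, Apln (3.14 ± 0.24), the tip cell peptide, its receptor Aplnr (2.85 ± 0.29) and Plvap (1.86 ± 0.18), of fenestrated vessels, were higher. Vegfa, the main vascular growth factor, had 141, 132, 94.1 and 113 CPM against 319, 333, 327 and 356 CPM (-1.47 ± 0.15; adjusted p = 1.64e-08). Vegfb (-1.80 ± 0.15) and the receptor Flt1 (-1.14 ± 0.13) were lower as well, as were the receptors Kdr (-0.53 ± 0.12) and Tek (-0.49 ± 0.10), which turned direction with total counts. Muscle fibres also make Vegfa and Vegfb.

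Imprinted genes were high on day 7 against every other group tested. Imprinted genes are expressed from the maternal or the paternal copy, and many of those listed are linked to fetal growth and fall silent after birth. All 17 of 17 were higher on RST day 7 than in LST (median 2.09) and 16 higher than on RST day 3 (median 1.21). Against RST day 14, 15 were higher (median 0.93), and against RST day 35, 16 (median 1.82). None was lower in any of these. Over all genes, 18.7%, 18.0% and 38.6% were higher than on RST days 3, 14 and 35. For 14 of 17, RST day 7 was highest with the threshold passed in all 4 comparisons, which held for 901 of 16149 genes (5.58%). Mest (chr6:30723547-30748465), a paternally expressed hydrolase of growing mesoderm, had 325, 275, 308 and 279.8 CPM against 3.34, 3.69, 3.71 and 2.66 CPM (6.46 ± 0.38; adjusted p = 3.79e-11), and means of 26.6, 57.2, 14.2 and 3.72 CPM on RST days 3, 14, 21 and 35. H19, a maternally expressed long RNA abundant in muscle, had 3862, 2931, 3957 and 4095 CPM against 853, 767, 1028 and 798 CPM (2.11 ± 0.14; adjusted p = 1.28e-10). Dlk1, which keeps precursor cells undifferentiated, had 23.4, 12.7, 20.3 and 14.8 CPM against 0.754, 1.69, 0.809 and 0.665 CPM (4.17 ± 0.37). Plagl1, a zinc finger regulator of the network, was 5.02 ± 0.33 higher, Igf2, the fetal growth factor, 2.15 ± 0.22, and the growth inhibitors Cdkn1c 2.25 ± 0.14 and Grb10 1.77 ± 0.10. The maternally expressed RNA Meg3, from the same locus as Dlk1, was 3.0 ± 0.25 higher. The 3 members outside the 14 were Dcn, Sgce and Igf2r. Members that share a locus are not independent of each other. Together the 17 genes took 0.745 ± 0.109% of counts on RST day 7 and 0.134 ± 0.012% in LST.

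**Figure D5:**
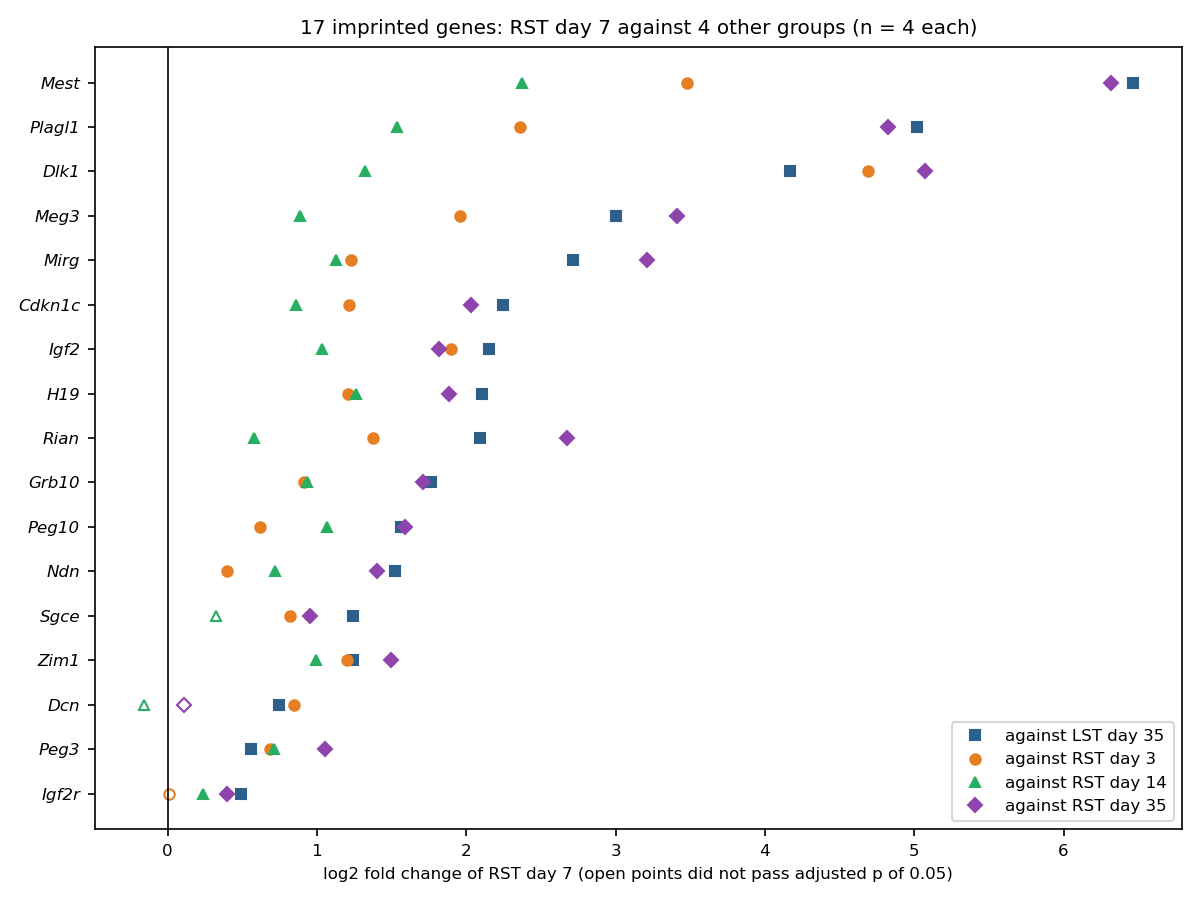
Log2 fold changes of RST day 7 against LST, RST day 3, RST day 14 and RST day 35 for 17 imprinted genes, with open points where the test was not passed. All but 1 of the points, that of Dcn against day 14, lie at or above 0, and Mest leads in the comparisons with LST, day 14 and day 35.

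Clock genes differed, but LST libraries spread. Of 24 circadian clock and output genes, 14 were lower and 4 higher (median -0.66), which became 8 lower and 9 higher with total counts. Arntl, the core activator BMAL1, had 13.5, 13.1, 10.1 and 13.3 CPM against 52.8, 40.5, 44.0 and 49.4 CPM (-1.90 ± 0.18; adjusted p = 3.59e-09). Its repressor Nr1d1 was -1.50 ± 0.18. Per2, of the negative limb, had 11.7, 12.1, 13.2 and 17.8 CPM against 2.07, 3.37, 3.58 and 3.89 CPM (2.09 ± 0.36; adjusted p = 1.76e-05), and Dbp, an output of the clock, was 1.10 ± 0.31 higher. The list took 0.153%, 0.159%, 0.247% and 0.298% of counts in LST replicates 1 to 4. Slc25a25, a mitochondrial carrier whose RNA follows time of day and activity, had 13.7, 25.8, 24.1 and 22.4 CPM against 35.8, 140.3, 271 and 424 CPM (-3.34 ± 0.80; adjusted p = 7.29e-04), and Arrdc2 7.50, 10.3, 15.3 and 9.84 CPM against 16.9, 36.2, 122 and 177 CPM (-3.03 ± 0.77, or -2.44 without LST replicate 4). For both, LST replicate 1 was close to RST day 7 and replicates 3 and 4 far above. The part of sampling hour in these values was not tested. Of 19 immediate early and dissection stress genes, 8 were higher and 3 lower (median 0.31), a higher share near that of all genes and a smaller lower share. Socs3 (3.39 ± 0.30) and Junb (2.05 ± 0.31) were higher, and Nr4a1 (-1.89 ± 0.34), Hspa1a (-1.44 ± 0.33) and Dusp1 (-0.79 ± 0.17) lower, of which Dusp1 did not pass with total counts (-0.16). Of 11 erythroid genes only Car1 (-1.0 ± 0.36) passed (median -0.54), and it did not pass without RST day 7 replicate 2 (-0.82) or LST replicate 1 (-0.41), in the fit on the 8 libraries alone (-1.03) or with total counts (-0.38). With total counts 4 were higher and none lower.

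Outside the lists, the genes with the largest differences added other roles. Slc5a7, the choline transporter of cholinergic neurons, had 2.83, 0.954, 1.87 and 1.84 CPM on RST day 7 and no count in LST (at least 52.4-fold higher), and Inava, a regulator of innate signalling, 1.92, 1.84, 2.13 and 1.66 CPM and no count (at least 54.4-fold higher). Bdkrb1, the bradykinin receptor induced by inflammation, had 564 counts against 1, 422 times (95% counting interval 75.4 to 16690) the LST level. Of the falls, Odf3l2 had 1.06, 0.445, 0.589 and 0.288 CPM against 6.83, 2.55, 14.3 and 10.7 CPM (-3.86 ± 0.61). Nos1, the nitric oxide synthase of the muscle membrane, had 37.3, 41.8, 25.3 and 25.4 CPM against 206, 235, 242 and 232 CPM (-2.82 ± 0.23; adjusted p = 7.90e-10), with no overlap. Fbp2 (-2.92 ± 0.30), the muscle fructose bisphosphatase, was lower too. RST day 7 was highest in all 4 comparisons for 901 genes (5.58%) and lowest for 1267 (7.85%). Among the highest were Gzmd, Gzme, Myh8, Slc5a7, Mest, the cadherin Cdh3 (5.64 ± 0.41), B3gat1 (4.55 ± 0.43, or 5.16 without LST replicate 4), which builds the HNK-1 sugar, and the keratin Krt8 (5.57, 2.51, 5.82 and 19.4 CPM against 0.0471, 0.274, 0.724 and 0 CPM), where replicate 4 was again highest. Krt8 was 4.89 ± 0.81 higher, 4.05 without RST day 7 replicate 4 and 6.16 without LST replicate 3. Among the lowest were Slc25a25, Arrdc2, Fbp2, Plin4, the glycogen regulator Ppp1r3c (-2.50 ± 0.27) and Cd24a (-2.14 ± 0.19). Of the fibrillar list 11 of 28 were highest on day 7 and of fatty acid oxidation 10 of 21 lowest, whereas of the cell cycle and type I interferon lists none was either.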

How the data were processed

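Gene counts of joint soft tissue from mice after knee arthroplasty were used. The authors deposited raw counts, in whole numbers, without normalisation. The tools listed per the submitters' processing notes are fastp and STAR, without their versions, and the build listed is mouse mm10. How reads were assigned to genes, with which annotation and strand setting, was not given in the sources used here, so values of antisense partners, of overlapping genes and of near-identical paralogs (the granzymes, for example) are uncertain. Of 36604 genes, 36591 matched GENCODE M21. Every joint column matched 1 sample, no row lacked a gene, and lymph node libraries were not used here.

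Groups were taken from the sample titles. Tests were run in R 4.3.3 with edgeR 4.0.16: filterByExpr (minimum count 10) kept 16149 genes, libraries were scaled by TMM, and the quasi-likelihood F test was fitted over all 24 joint libraries in 6 groups of 4, which share an estimate of the spread. Each adjusted p (Benjamini-Hochberg) covers 1 comparison. SEs were obtained from the log2 fold change and its F (size divided by the root of F). Genes with no count over the LST group were set against a floor of 3 counts over the group, and those with 1 to 3 counts are given as ratios with 95% exact counting intervals. Library shares were compared with exact permutation tests. The code was tested on simulated data with known changes. Replicates differed by more than sampling noise in every pair (lowest chi-square per degree of freedom 8.27).

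The 43 gene lists were written from textbook knowledge, and the members and lists were chosen with earlier results of these data known. Genes were named by a rule: the 12 largest rises and falls whose higher group averaged 50 counts or more and whose groups did not overlap, the 10 largest gains and losses of CPM, the 4 members of each list with the smallest adjusted p, members against their list's lead or in counts of 5 or fewer, and the 8 highest and 8 lowest on day 7. Other list members are named to show roles, and some genes that the rule names are not reported here. Alternatives were a fit on the 8 libraries alone, other scalings, no filter, a replicate block, DESeq2 1.42.0 and leaving out each library. Promoters come from RefSeq's GRCm38.p6 table.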

Additional observations from a re-analysis of the deposited data

Results flagged for a closer look

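Library measures and the CPM of each named gene were checked in RST day 7 and in LST for a library whose distance to its nearest neighbour was most of the group's range, at a level that chance passes in about 1 of 20 groups. 44 of 616 groups of 4 passed (7.14%).

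In RST day 7, replicate 4 stood apart for genes of immature or denervated muscle. Its CPM was 36.1 for Chrng (5.63 to 7.70 in the others), 133 for Chrna1 (46.0 to 55.7), 47.9 for Chrnd (7.66 to 11.8), 50.6 for Myod1 (17.9 to 21.4) and 163 for Myh3 (79.9 to 91.9). The junction list took 0.124% of its counts (0.0571% to 0.0637%). Gzmc was also high there at 3.67 CPM.

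Replicate 3 stood above the other RST day 7 libraries for several macrophage and lymphoid genes. Its CPM was 37.8 for Trem2 (24.1 to 25.5), 79.4 for Mrc1 (54.3 to 56.4), 10.5 for Hk3 (7.31 to 7.54), 2.91 for Ccr7 (1.62 to 1.73) and 3.53 for Ltf (1.01 to 1.14). Its shares of counts were 0.0641% for tissue-resident macrophage genes (0.0520% to 0.0540%) and 0.00288% for T cell genes (0.00203% to 0.00214%). Replicate 3 was also high for Plagl1 (124 CPM) and B3gat1 (4.52 CPM) and low for Arntl (10.1 CPM). Replicate 2 was high for Cytl1 (1.81 CPM) and Pcolce2 (9.41 CPM) and low for Rplp0 (804 CPM, 854 to 863 in the others). Replicate 1 was low for Sele (3.81 CPM) and for the endothelial list (0.10% of counts, 0.113% to 0.114% in the others).

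In LST, replicate 1 was high for Mmp9 (11.8 CPM; 3.02 to 4.47), Col2a1 (4.90 CPM; 0.512 to 1.19), Flt3 (0.283 CPM) and the adipocyte list (0.610% of counts) and low for Junb (15.2 CPM). Replicate 2 was high for Dlk1 (1.69 CPM; 0.665 to 0.809) and low for the inflammatory list (0.000968%) and the TGF-beta list (0.0562%). Replicate 3 was high for Cnn1 (1.45 CPM), Dok7 (28.3 CPM), Kit (2.09 CPM) and Klrd1 (0.0852 CPM), and replicate 4 for Adipoq (20.9 CPM), Fbxo40 (634 CPM) and Mrc1 (17.4 CPM; 11.7 to 12.2). The remaining groups rest on 0 to 2 counts in LST: Bdkrb1 (0.0456 CPM in replicate 2), Gzmc (0.0512 CPM in replicate 4), Gzme (0.0426 CPM in replicate 3), Gdf5 (0.0471 CPM in replicate 1), Mymx (0.102 CPM in replicate 4), Tnfsf11 (0 in replicate 3) and Il6 (0 in replicate 1).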

How the results depend on the processing

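The number of genes past the threshold, 12287, lay between 12257 and 12828 under the other scalings, the fit on 8 libraries, no filter on low counts, the replicate block and DESeq2, and between 11732 (without RST day 7 replicate 3) and 12126 (without RST day 7 replicate 1) with 1 library left out. Genes higher ranged from 6370 to 6514 and lower from 5344 to 5612 with 1 library left out. A further demand of over 2-fold left 6089 genes. Scaling by total counts alone gave 10633 higher and 2195 lower. With 1 library left out, calls ranged from 5654 to 6471 against RST day 3, from 4325 (without RST day 14 replicate 3) to 7536 (without RST day 14 replicate 2) against RST day 14, and from 10980 to 11506 against RST day 35. Scaling by total counts reversed these of the 259 named genes checked: Axin2 (0.34), Bmp4 (0.041), Ccne2 (0.60), Chrne (0.14), Ddit3 (0.071), Des (0.23), Gbp4 (0.011), Kdr (0.089), Mia3 (0.20), Nos2 (0.61), Ostm1 (0.40), Sec23a (0.005), Smad7 (0.01), Tek (0.13), Tgfb2 (0.50) and Timp3 (0.15), given as log2 fold changes. It also turned the lead of the circadian list, with 8 members lower, and of the erythroid list, with 0 lower. Of 259 named genes checked, 223 kept direction and side of the threshold under total counts. All 259 did under DESeq2 size factors and 254 in the fit on 8 libraries. The replicate block changed no call of a named gene. With that block 12257 genes passed. Deviations of same-numbered RST day 7 and LST libraries correlated at -0.0508 to 0.0527, other pairs at -0.1302 to 0.1409. With no animal numbers for joint samples, these values cannot settle whether libraries of the same number belong together. Counts near 0 in LST limit the largest folds.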

Other observations

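Outside the lists, the muscle forms of 2 proteins of translation were lower on RST day 7 than in LST while their widespread forms were higher. These genes were picked after their values were seen, and bracketed values are log2 fold changes ± SE by edgeR's quasi-likelihood test. Rpl3l, the muscle form of ribosomal protein L3, had 309, 252, 172 and 125 CPM on RST day 7 and 656, 647, 648 and 609 CPM in LST (-1.57 ± 0.20; adjusted p = 3.31e-07). Rpl3, the form of most tissues, had 229, 218, 281 and 280.4 CPM against 51.0, 43, 50.3 and 47.3 CPM (2.40 ± 0.18). Eef1a2, the elongation factor form of muscle and neurons, had 1233, 1241, 974 and 845 CPM against 2855, 2616, 2500 and 2488 CPM (-1.28 ± 0.14), and Eef1a1, the form of most tissues, 1326, 1360, 1660 and 1518 CPM against 311, 273, 324 and 309.9 CPM (2.27 ± 0.16; adjusted p = 1.67e-10). The groups did not overlap for any of the 4. On RST day 3 the means were 222 CPM for Rpl3l and 1290 CPM for Eef1a2, and on RST day 35 they were 637 and 2492 CPM.

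Of 3 genes often used as references in PCR assays, also picked after their values were seen, 1 was lower, 1 was higher and 1 did not pass. Gapdh had 2012, 1652, 1377 and 1228 CPM on RST day 7 and 4288, 4249, 4072 and 3998 CPM in LST (-1.41 ± 0.16; adjusted p = 5.87e-08). Actb had 717, 749.9, 911 and 906 CPM against 307, 264, 255 and 249.6 CPM (1.61 ± 0.18; adjusted p = 4.64e-08). Rplp0 had 804 to 863 CPM against 752 to 795 CPM and did not pass (0.13 ± 0.09; adjusted p = 0.212). With total counts in place of TMM the log2 fold changes were -0.79 for Gapdh, 2.25 for Actb and 0.76 for Rplp0, which then passed.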
